A study of Homo sapiens with 8 samples.

Results

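The long intergenic noncoding RNAs that U-937 cells transcribe at a measurable level were examined across treatment with all-trans retinoic acid (ATRA) and L-ascorbic acid (LAA, vitamin C). The 94 genes described were chosen by their symbol and level: a deposited symbol made of LINC and a number, and at least 1 CPM (estimated counts scaled to a common library total) in 2 or more of the 8 libraries. They are 94 of 1452 rows with such a symbol and of 61125 genes in the table. A count of 0 in all 8 libraries was found for 1007 of the 1452, and the remaining 351 had counts but stayed below the rule. U-937 is a human line of pro-monocytic leukemia cells grown in culture in RPMI medium with serum. The vehicle group received PBS with DMSO. The LAA group received 250 µM LAA, the ATRA group 1 µM ATRA, and the LAA+ATRA group the combination, each for 72 h. Each group has 2 libraries, and no other agent is named in the labels. Polyadenylated RNA was enriched with poly-T beads, so noncoding transcripts without a poly-A tail are under-represented in every library. All libraries come from 1 cell line, and the labels do not say whether the replicates were separate cultures, so a p-value here measures the spread between libraries that may be technical replicates.

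Long intergenic noncoding RNAs are transcribed from their own units between protein-coding genes, are usually spliced and capped, and carry no long conserved reading frame. A few act as scaffolds or decoys for proteins, act on the chromatin of neighbouring genes or encode small peptides, while for most no function has been established. The LINC numbers are placeholder symbols given by the gene nomenclature committee, so genes that share the prefix share no sequence family. ATRA binds retinoic acid receptors, which sit with RXR partners on hexamer repeats of DNA, and it drives leukemic myeloid cells toward differentiation. Ascorbate is a cofactor of iron-dependent dioxygenases, among them the TET enzymes that oxidise methylated cytosine and that the study's title names.

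LINC01226, given as the marker of this gene group, is not among the 94. Its row is 1 of 25951 deposited without a symbol, and GENCODE 29 and the gene name table pair its Ensembl identifier with LINC01226. It was at 7.38 and 9.93 CPM with vehicle and 8.15 and 5.63 with LAA. With ATRA it was at 0.324 and 0.331 CPM, and with LAA+ATRA at 1.14 and 0.964. All 4 libraries with ATRA lay below all 4 without it, and the fall from vehicle to ATRA was 23.7-fold (log2 fold change -4.57 ± 0.36 SE, edgeR adjusted p = 1.16e-06). Its level with LAA+ATRA was 3.25-fold that with ATRA alone (log2 1.70 ± 0.43, edgeR adjusted p = 0.0726), which did not pass the threshold of 0.05, and in the deposited FPKM (fragments scaled to transcript length and library size) this difference had the opposite sign (-0.13 on log2(FPKM + 1)). If the symbols of the gene name table are used instead, 142 LINC-numbered genes meet the level rule, 50 of which are not among the 94, 47 of them because the symbol field of their row is empty.

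Library totals ran from 18462552 to 24166770 estimated counts. Of 10 monocytic markers 9 reached 1 CPM in every group, the exception being MPO at 0.162 to 0.777 CPM. Their summed level was 2041 to 2129 CPM with vehicle and 4162 to 4474 CPM with ATRA. The markers did not move alike. The largest differences were in ITGB2 (839 and 864 CPM with vehicle, 2393 and 2119 with ATRA) and CD68 (62.7 and 73.4, 489 and 447). LYZ (472 and 527, 515 and 582), CD33 (50.3 and 47.4, 63.1 and 66.7) and PTPRC (136 and 126, 167 and 166) differed less, and MPO was lower (0.458 and 0.461, 0.378 and 0.372). Of 10 markers of other lineages 4 (CD3E, MS4A1, HBB and GATA1) were at 0 in every library, and the summed level of the list was 352 to 366 CPM with vehicle against 423 to 460 with ATRA, most of it NKG7 and PECAM1. The part of these shifts in the results below was not tested, and in bulk RNA fewer cells of a type and less RNA per cell cannot be told apart. Scaling of the libraries by TMM, used in every test, moved the median log2 ratio of all genes between ATRA and vehicle from -0.13 to 0.00. Changes are relative to that scaling, while CPM values are printed unscaled.

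Together the 94 genes took little of the transcriptome. Their summed level was 683 to 947 CPM per library, which is 0.0683% to 0.0947% of the estimated counts. The mean level of a member had a median of 2.24 CPM and ran from 0.585 to 246 CPM. Only 17 members averaged at least 10 CPM and 43 averaged under 2 CPM. The rule was met in all 8 libraries by 52 members. The rule's edge falls inside a continuum: the second-highest CPM, which decides membership, was 1.02 for LINC00173, 1.03 for LINC01814 and 1.03 for LINC00877 just inside, and 0.985 for LINC01970, 0.975 for LINC01088 and 0.964 for LINC01176 just outside.

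A single gene, LINC00926 (chr15:57300365-57307769 on GRCh38, plus strand, 1084 bases from TCF12), held 26.8% to 35.0% of the members' summed CPM. Per kilobase it averaged 261 FPKM, and its lowest library, at 209.5 FPKM, stood above the highest library of the next member, LINC01667, at 89.5 FPKM. LINC01667 (chr21:9781918-9814009, mean 51.3 FPKM) was followed by LINC02470 (37.0), LINC00339 (22.5), LINC00847 (21.6), LINC03014 (16.8), LINC00426 (16.2), LINC00649 (14.4), LINC00662 (14.4) and LINC02210 (13.1 FPKM). From LINC01667 downward the ranges of neighbours in this order overlapped over the 8 libraries, which span the 4 groups. Order could also differ between groups. With vehicle LINC02470 was at 54.4 and 63.1 FPKM and LINC00339 at 19.3 and 21.1. With ATRA LINC02470 was at 17.5 and 16.1 FPKM and LINC00339 at 21.9 and 27.1. LINC00926 itself was at 244 and 281 CPM with vehicle, 332 and 295 with LAA, 201 and 183 with ATRA, and 246 and 190 with LAA+ATRA. The groups with and without ATRA overlapped at 1 library of LAA+ATRA. Its log2 fold change was -0.32 ± 0.13 from vehicle to ATRA (edgeR adjusted p = 0.0741) and -0.38 ± 0.13 from LAA to LAA+ATRA (edgeR adjusted p = 0.0414), so it passed the test only beside LAA, and no difference between these 2 effects passed a test.

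**Figure D1:**
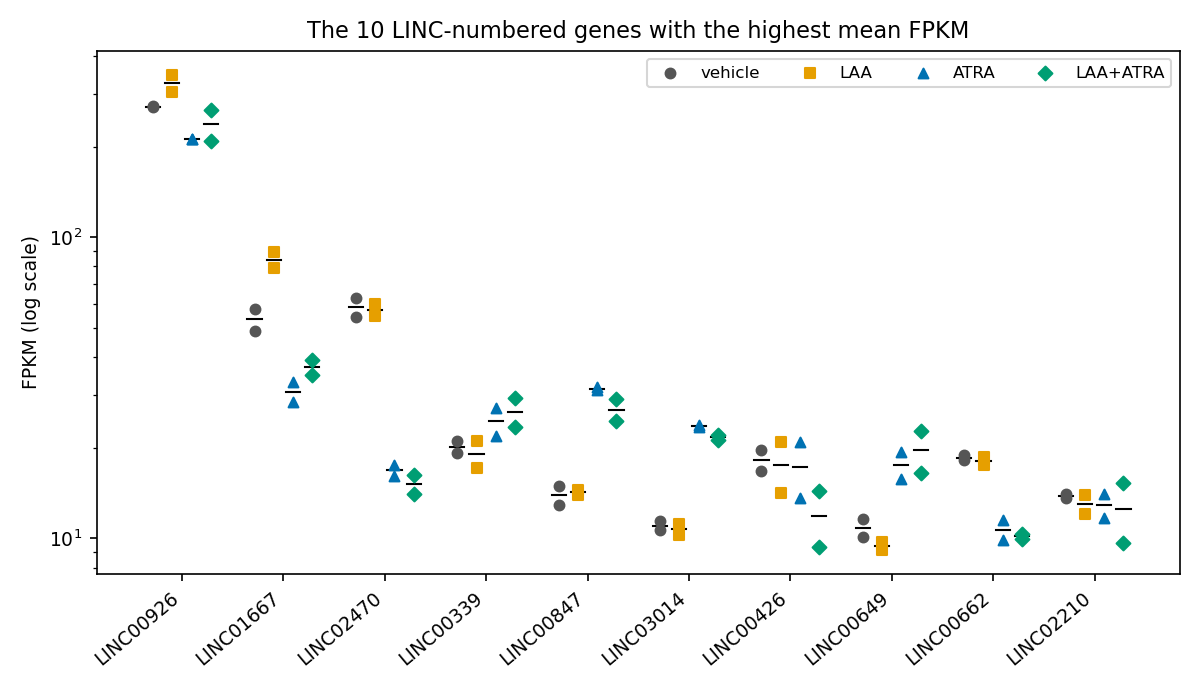
FPKM on a log axis for the 10 members with the highest mean FPKM; points are single libraries, symbols and colours mark the 4 groups, and short lines are the means of 2 libraries. LINC00926 stands above all other members in every library, LINC02470 and LINC00662 sit lower in the libraries with ATRA, and LINC00847, LINC03014 and LINC00649 sit higher.

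Most members are unremarkable in their gene structure. An entry in GENCODE 29 was found by identifier for 92 of the 94, for 26 of them under another name, and LINC02256 and LINC01512 had none. Of the 92, 69 were typed as lincRNA, 8 as processed transcript, 4 as antisense, 6 as transcribed pseudogenes and 2, LINC02693 (C17orf51) and LINC00672, as protein coding. No protein-coding gene body was overlapped by 78, 9 overlapped one on the same strand and 5 on the opposite strand only. The median summed exon length was 2968.5 bases, against 5002 for the protein-coding genes tested. The library kit keeps no strand, so reads in an overlap cannot be assigned to 1 of the genes by strand. An estimated count can be not whole when reads are shared between genes. That was so in every library for 13 members, among them LINC00926, LINC01667, LINC00847 and LINC02987. These named genes overlap no protein-coding gene body, and the source of the sharing was not tested.

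ATRA changed members in both directions. With ATRA against vehicle 16 of the 94 were higher and 13 lower at an adjusted p under 0.05 (edgeR), that is 17.0% and 13.8%, and 12 and 7 of these by at least 2-fold. Across all 14995 genes tested 21.9% were higher and 21.0% lower. The median log2 fold change was 0.11 over the members and 0.00 over all genes tested, and the median standard error was 0.38 against 0.15. Among the 17 members averaging at least 10 CPM, 4 were higher and 5 lower. Of the 94, 10 reached 1 CPM in no library with ATRA and 9 in no library without it, so the rule admitted these through 1 side only. They include 4 of the falls and 5 of the rises, and of the other 75 members 11 rose and 9 fell. On log2(FPKM + 1) the number higher was 9 rather than 16, and it also fell without vehicle replicate 1. The share of all genes called in those fits is not given here.

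**Figure D2:**
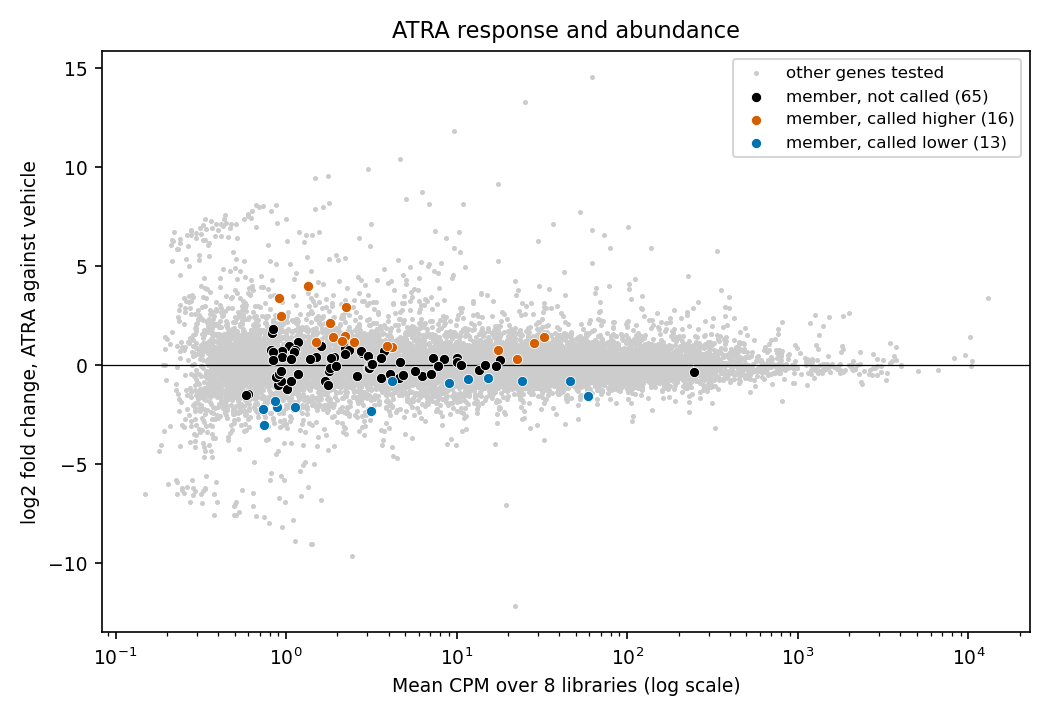
log2 fold change of ATRA against vehicle (y axis) by mean CPM over 8 libraries (x axis, log scale) for all genes tested (grey) and the 94 members (coloured by call). The 16 members called higher and 13 called lower lie within the cloud of other genes, and the largest changes belong to members of low mean CPM.

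Among the rises, those with the highest levels were LINC03014 and LINC00847. LINC03014 (AC093627.4 in GENCODE 29, chr7:149571-155465, plus strand) was at 17.2 and 19.9 CPM with vehicle and 23.3 and 23.5 with LAA, and at 44.1 and 48.0 with ATRA and 42.3 and 43.4 with LAA+ATRA. The groups with and without ATRA did not overlap, and the rise from vehicle to ATRA was 2.71-fold (log2 1.44 ± 0.12, edgeR adjusted p = 1.36e-06). LINC00847 (chr5:180830957-180835726, plus strand) was at 21.5 and 19 CPM with vehicle, 18.7 and 20.4 with LAA, 40.9 and 39.4 with ATRA, and 31.9 and 36.5 with LAA+ATRA. It rose 2.17-fold (log2 1.11 ± 0.12, edgeR adjusted p = 1.26e-05), again with no overlap. LINC00649, at 14.3 and 14.6 CPM with vehicle and 24.3 and 21.3 with ATRA, rose 1.72-fold (edgeR adjusted p = 0.00103). It runs opposite to ATP5PO, a subunit of the mitochondrial ATP synthase.

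The largest rises by fold were in genes near the floor without ATRA. LINC01091 (chr4:123650267-123930406, plus strand) had no count in 1 vehicle and 1 LAA library, 0.307 CPM in the other vehicle and 0.217 in the other LAA library. It was at 2.37 and 2.28 CPM with ATRA and 3.06 and 2.55 with LAA+ATRA. Every library with ATRA lay above every library without it (log2 3.99 ± 0.85 for ATRA against vehicle, edgeR adjusted p = 0.00243). LINC00324 (chr17:8220642-8224043, minus strand) was at 0.560 and 0.665 CPM with vehicle, 0.568 and 0.433 with LAA, 4.48 and 4.34 with ATRA, and 3.73 and 3.23 with LAA+ATRA. Its 7.79-fold rise (log2 2.96 ± 0.36, edgeR adjusted p = 4.12e-05) was the best resolved of the rises above 4-fold. LINC01504 rose 4.34-fold from 0.662 and 0.665 to 2.27 and 3.02 CPM (edgeR adjusted p = 0.00116). LINC00968 rose 5.69-fold from 0.254 and 0.461 to 1.35 and 2.40 CPM (edgeR adjusted p = 0.00479), a call lost without ATRA replicate 2 (adjusted p = 0.0517). LINC01962 was at 0.153 and 0.205 CPM with vehicle and 1.89 and 1.66 with ATRA (log2 3.39 ± 0.86, edgeR adjusted p = 0.00681). One LAA library at 0.758 CPM and one LAA+ATRA library at 0.675 CPM overlapped, and the call was lost without vehicle replicate 1 (adjusted p = 0.0512). These 5 are the rises among the 9 members that the level rule admitted through the libraries with ATRA alone.

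Smaller rises were seen in LINC01637 (log2 1.48 ± 0.38), LINC02481 (1.42 ± 0.42), LINC01963 (1.25 ± 0.46), LINC00852 (1.20 ± 0.45), LINC02623, LINC00863, LINC01410 and LINC00667, the last by 0.32 on the log2 scale. LINC00852 and LINC01963 sat at the threshold, with edgeR adjusted p of 0.0490 and 0.0462. DESeq2 gave LINC00852 an adjusted p of 0.0870. LINC01963 was at 0.814 and 1.69 CPM with vehicle and 3.83 and 1.70 with ATRA, and had an edgeR adjusted p of 0.403 without ATRA replicate 1.

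The falls were led in precision by LINC02470 (chr12:9936579-9943495, minus strand). It was at 87.7 and 97.4 CPM with vehicle, 95.5 and 81.4 with LAA, 31.4 and 27.5 with ATRA, and 21.3 and 28.3 with LAA+ATRA. No library with ATRA came near those without, and the fall was 2.88-fold (log2 -1.53 ± 0.13, edgeR adjusted p = 2.8e-06). LINC02693, annotated as the reading frame C17orf51 in GENCODE 29, was at 5.65 and 4.81 CPM with vehicle and 1.08 and 0.869 with ATRA, a 4.93-fold fall (edgeR adjusted p = 0.000171). LINC01667 was at 43.6 and 55.1 CPM with vehicle and 27.8 and 23.7 with ATRA (1.76-fold, edgeR adjusted p = 0.000434). LINC02910, at 11.6 and 13.3 CPM with vehicle and 5.99 and 6.21 with ATRA, fell 1.86-fold (edgeR adjusted p = 0.00566). LINC00426 fell 1.61-fold in counts (edgeR adjusted p = 0.00702), from 13.2 and 16.8 to 7.82 and 9.14 CPM, yet its FPKM of 16.7 and 19.6 with vehicle and 13.6 and 20.8 with ATRA overlapped. It was the exception: all other members called in this comparison kept the 2 groups apart in FPKM in the direction of the call.

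Of the members low in every library, LINC01512 fell from 1.27 and 1.38 to 0.216 and 0.0828 CPM (log2 -3.03 ± 0.73, edgeR adjusted p = 0.00506). LINC02367 went from 1.37 and 1.56 CPM with vehicle to 0.270 and 0.342 with ATRA, and was at 0.259 and 0.289 with LAA+ATRA (log2 -2.12 ± 0.57 for ATRA against vehicle, edgeR adjusted p = 0.0102). LINC01623 and LINC02577 fell by 2.12 and 1.81 on the log2 scale, and LINC01409 by 2.20. The calls of LINC01409 and LINC02577 were lost when any 1 of the vehicle or ATRA libraries was left out, and DESeq2 gave LINC02577 an adjusted p of 0.0602. LINC01512, LINC02367, LINC01623 and LINC02577 are the falls among the 10 members that the level rule admitted through the libraries without ATRA alone, the side on which they are high. LINC02245 completed the falls together with the pair LINC00662 and LINC02987.

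**Figure D3:**
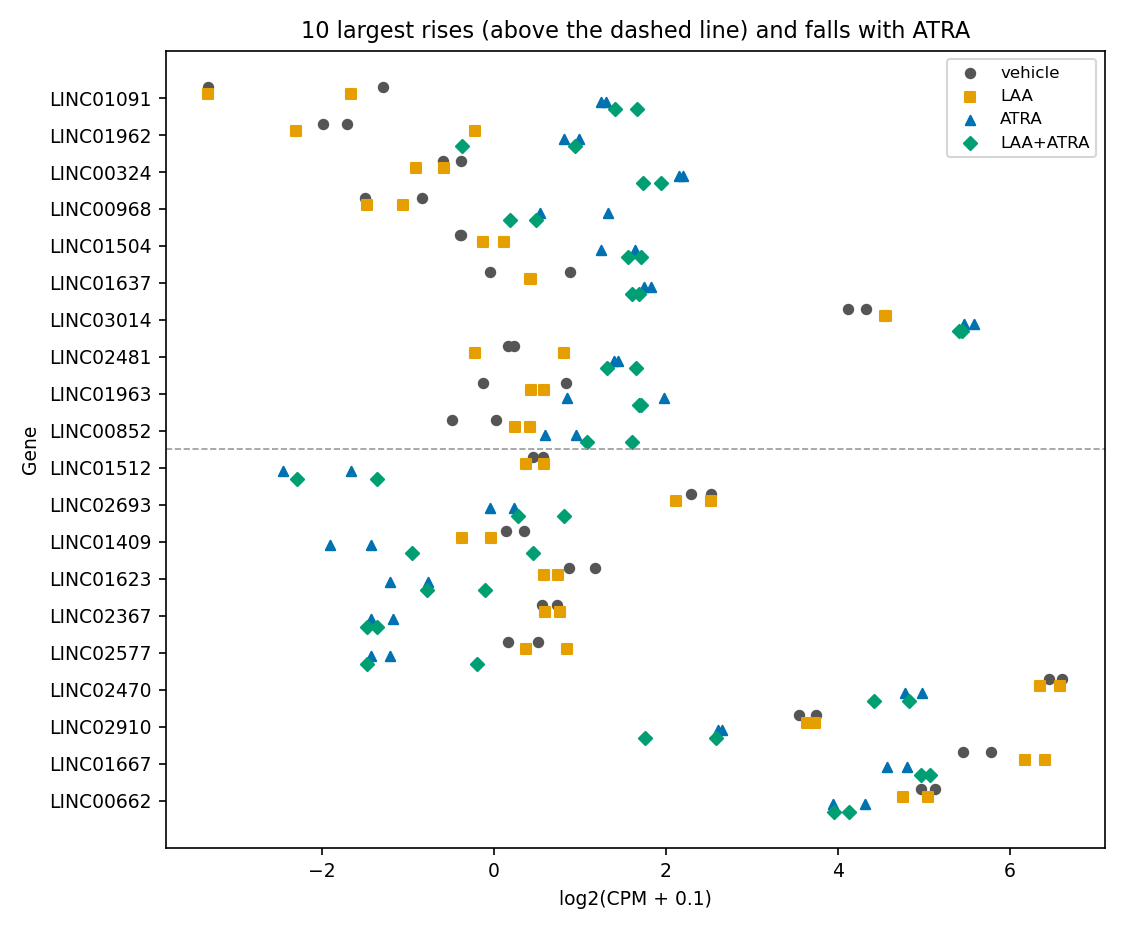
log2(CPM + 0.1) in each of the 8 libraries (symbols and colours mark the 4 groups) for the 10 largest rises, above the dashed line, and the 10 largest falls with ATRA against vehicle. The libraries with ATRA lie right of those without it for the rises and left for the falls, except in LINC01962 and LINC01409, where an LAA+ATRA library reaches the other side.

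LINC00662 and LINC02987 are neighbours on chromosome 19 that run away from each other and overlap by 478 bases at their starts (chr19:27684580-27793940, minus strand, and chr19:27793463-27918863, plus strand). LINC00662 was at 31.1 and 34.8 CPM with vehicle, 32.9 and 27.0 with LAA, 15.3 and 19.8 with ATRA, and 15.3 and 17.4 with LAA+ATRA. LINC02987 was at 20.6 and 18.7 CPM with vehicle, 17.0 and 18.6 with LAA, 11.4 and 12.0 with ATRA, and 13.0 and 10.5 with LAA+ATRA. Both fell with ATRA with no overlap of groups, by 1.71-fold (edgeR adjusted p = 0.00144) and 1.54-fold (edgeR adjusted p = 0.00587). Because strand was not kept, reads in the shared 478 bases cannot be told apart. Within 50000 bases of each other lay 6 pairs of members involving 9 genes, and this was the sole pair in which both passed the test. The other overlapping pair, LINC01128 and LINC00115 on chromosome 1, had log2 fold changes of -0.04 and -0.46.

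Promoter sequences of 300 bases, from 250 before to 50 after the RefSeq start on GRCh38.p14, were matched by symbol for 63 of the 94. The hexamer AGGTCA, the core element of retinoic acid receptor sites, was searched on both strands. It was present in 9 of the 63 (14.3%) and in 13.9% of 27305 promoters of the same length. Among promoters of members called with ATRA it was found in 2 of 11 rises and 3 of 11 falls. A direct repeat of 2 hexamers (AGGTCA, also with G as the first base or T as the third) with 5, 2 or 1 bases between was in 0 of the 63, and in 0.0806%, 0.0439% and 0.132% of all promoters. TATAAA was in 14.3% of the members' promoters and 12.0% of all. The median GC content was 58.7% for members and 58.3% for all promoters. These are descriptions of letters in 1 window and no measure of binding.

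Sequences of 4 promoters are shown because they bear on the results above: 1 rise and 1 fall that hold AGGTCA, the partner of that fall, and the rise with the largest fold change. Each is written 5′ to 3′ on the strand of the gene, with AGGTCA (or TGACCT on the other strand) and TATAAA in capitals. They lie at chr5:180830707-180831006, plus strand, at chr19:27793891-27794190, minus strand, at chr19:27793181-27793480, plus strand, and at chr4:123649741-123650040, plus strand.
LINC00847: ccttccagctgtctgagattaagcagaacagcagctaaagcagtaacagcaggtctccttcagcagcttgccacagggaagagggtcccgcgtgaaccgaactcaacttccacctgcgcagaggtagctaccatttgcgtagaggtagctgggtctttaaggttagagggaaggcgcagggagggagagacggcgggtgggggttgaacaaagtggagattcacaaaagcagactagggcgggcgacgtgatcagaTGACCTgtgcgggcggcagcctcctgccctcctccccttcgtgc
LINC00662: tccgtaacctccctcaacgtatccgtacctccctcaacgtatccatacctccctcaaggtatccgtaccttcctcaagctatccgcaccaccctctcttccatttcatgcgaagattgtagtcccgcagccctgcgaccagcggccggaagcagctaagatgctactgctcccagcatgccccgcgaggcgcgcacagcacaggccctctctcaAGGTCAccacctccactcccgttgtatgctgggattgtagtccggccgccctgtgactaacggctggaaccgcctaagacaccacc
LINC02987: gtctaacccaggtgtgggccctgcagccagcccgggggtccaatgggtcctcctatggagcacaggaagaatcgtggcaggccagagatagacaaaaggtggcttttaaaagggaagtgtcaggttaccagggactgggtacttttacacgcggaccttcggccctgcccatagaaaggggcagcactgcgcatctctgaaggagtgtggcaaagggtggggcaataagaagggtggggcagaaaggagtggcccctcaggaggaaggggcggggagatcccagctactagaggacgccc
LINC01091: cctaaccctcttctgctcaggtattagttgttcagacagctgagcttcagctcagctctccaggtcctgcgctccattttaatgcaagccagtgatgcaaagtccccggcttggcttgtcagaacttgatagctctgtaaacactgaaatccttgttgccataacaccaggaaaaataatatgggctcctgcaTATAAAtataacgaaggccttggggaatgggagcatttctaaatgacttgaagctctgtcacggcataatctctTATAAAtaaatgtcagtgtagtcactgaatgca
The hexamer begins at position 6 after the start of LINC00847, on the other strand, and at position -36 of LINC00662. The window of LINC02987 holds neither word, and LINC01091 holds TATAAA first at position -57.

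LAA+ATRA against LAA shares no library with ATRA against vehicle. In it 14 members were higher and 12 lower (edgeR), that is 14.9% and 12.8%, against 18.4% and 18.0% of all genes tested. The sign was the same in both comparisons for 77 of 94 members (81.9%, against 84.0% of all genes). Across members Pearson's r was 0.863 and Spearman's rho 0.827, and over all genes tested r was 0.733. The 94 include the 10 and 9 members that the level rule admitted through 1 side only, which favours agreement between these comparisons. Values without them are not given here, so the higher r is not read as a trait of the members. Genes are not independent replicates. Calls in the same direction in both numbered 22, of which 13 rose and 9 fell. That is 75.9% of those called without LAA and 84.6% of those called with it. The matching shares over all genes are not given here. The 22 include LINC01091, LINC00324, LINC00968, LINC01504, LINC01512 and LINC02367, which entered the set through 1 side only. No member was called in opposite directions. LINC02470 fell 3.25-fold in this comparison (edgeR adjusted p = 1.73e-06), LINC00324 rose 7.55-fold (edgeR adjusted p = 8.39e-05), and LINC01091 had a log2 fold change of 4.78 ± 0.90 (edgeR adjusted p = 0.00135). LINC00968 (1.99 ± 0.62), LINC01512 (-2.54 ± 0.70) and LINC02367 (-2.30 ± 0.59) completed the largest changes. Of these 6, all but LINC02470 entered the set through 1 side only, and of the 75 members that did not, 10 were higher and 10 lower. LINC01667 fell 2.21-fold (edgeR adjusted p = 3.94e-05). Fewer members were called without LAA replicate 2, and the share of all genes called in that fit is not given here.

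Both compounds together against vehicle gave 20 higher and 14 lower (edgeR), that is 21.3% and 14.9%, against 23.1% and 21.5% of all genes tested. Its control libraries are those of ATRA against vehicle, so the values are given side by side only. LINC01091 had a log2 fold change of 4.30 ± 0.85, LINC01962 2.92 ± 0.87, LINC00324 2.66 ± 0.37, LINC01504 2.33 ± 0.41 and LINC00968 1.85 ± 0.61. The largest falls were those of LINC02983 (-3.30 ± 1.08), LINC01512 (-2.55 ± 0.70), LINC02367 (-2.22 ± 0.59), LINC02693 (-1.75 ± 0.33) and LINC02470 (-1.74 ± 0.14). LINC02983, not called with ATRA alone, was at 1.12 and 1.18 CPM with vehicle, 0.516 and 0.867 with LAA, 0.701 and 0.0828 with ATRA, and 0 and 0.217 with LAA+ATRA, and its call was lost without either vehicle library. The 5 rises given, LINC02983, LINC01512 and LINC02367 entered the set through 1 side only, and of the 75 members that did not, 15 were higher and 10 lower. There were fewer rises without vehicle replicate 1, and fewer falls without vehicle replicate 2 or without LAA+ATRA replicate 2. The share of all genes called in those fits is not given here.

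**Figure D4:**
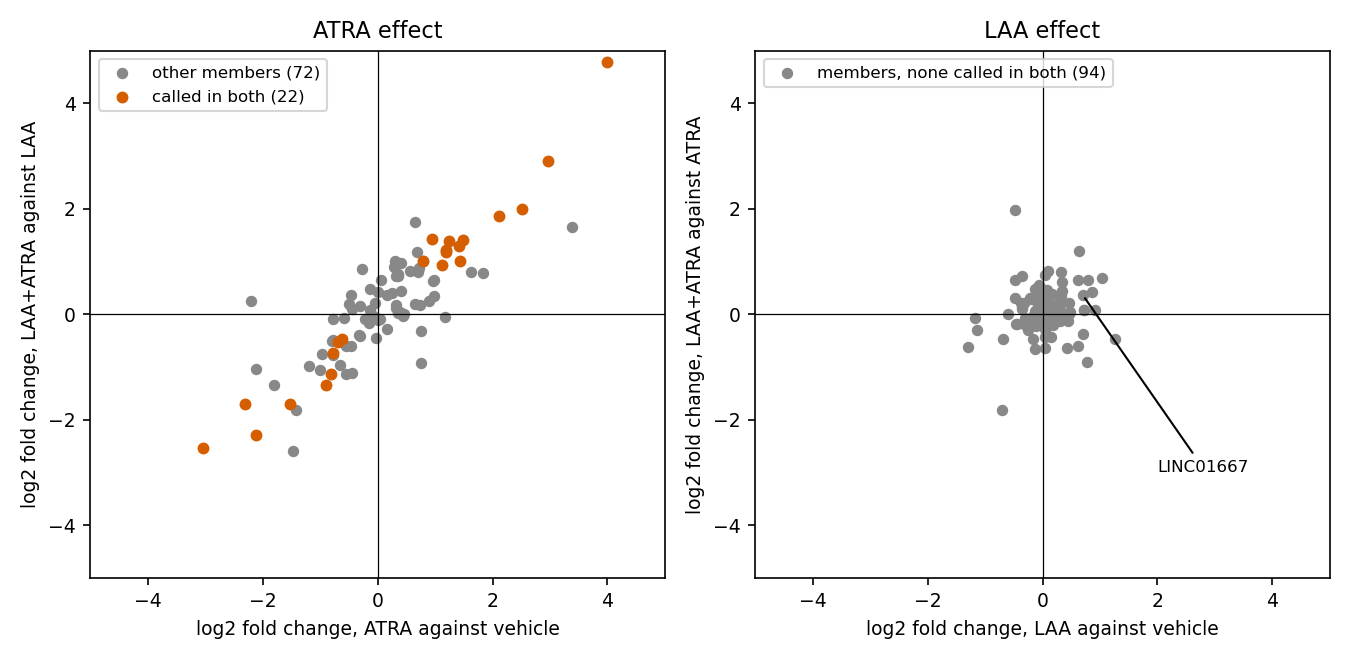
log2 fold changes of the 94 members in comparisons that share no library: the ATRA effect without LAA (x axis) and with LAA (y axis) on the left, the LAA effect without ATRA (x axis) and with ATRA (y axis) on the right, on the same scale. The ATRA effects lie along the diagonal, with 22 members called in both. The LAA effects gather around 0 with r = 0.149 (0.177 over all genes tested), with LINC01667 marked.

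Irrespective of any model, the 4 libraries with ATRA all lay above the 4 without for 20 members and all below for 19 on TMM-scaled CPM, against 21.9% and 21.5% of all genes tested. Of these, 6 of the 20 and 6 of the 19 were admitted by the level rule through 1 side only, which favours such a separation. Of the other 75 members, 14 lay above and 13 below (18.7% and 17.3%). Other classes of noncoding RNA are given for comparison, with no test of a difference from the members. With ATRA against vehicle, 23.4% of all genes at the same level were higher and 22.6% lower. Of 220 antisense transcripts at that level, 35 were higher and 25 lower (15.9% and 11.4%). Of 17 small nucleolar RNA host genes 0 were higher and 5 lower (0% and 29.4%). Of 15 microRNA host genes 3 were higher and 3 lower (20% and 20%). Of 29 other named long noncoding RNAs that were tested, 7 were higher and 4 lower (24.1% and 13.8%, against 21.9% and 21.0% of all genes tested). HOTAIRM1, the myeloid transcript of the HOXA cluster, was among the rises, with a log2 fold change of 1.83 (edgeR adjusted p = 7.59e-05). Of 30 LINC genes listed for a described role in blood or cancer cells, 9 were members, of which LINC00847 rose and LINC00662 fell. LINC00173, which has been linked to granulocytic differentiation, was at 0.713 and 1.02 CPM with vehicle and 0.486 and 0.124 with ATRA (log2 -1.42 ± 0.85, edgeR adjusted p = 0.198). LINC00467 (log2 0.31 ± 0.20) and LINC01138 (0.04 ± 0.29) did not pass the test either.

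LAA alone changed no member at the threshold. With LAA against vehicle 0 of 94 members were called by edgeR, against 0.0267% of all genes. An unadjusted p under 0.05 was found for 5 members (5.32%) and for 18.9% of all genes. DESeq2 called 1 member, LINC01667. With LAA+ATRA against ATRA 0 members were called by edgeR and 0 by DESeq2, against 1.01% of all genes by edgeR. Here 6 members (6.38%) and 18.6% of all genes had an unadjusted p under 0.05. When the LAA effect was averaged over both arms, with and without ATRA, 12.5% of all genes were called but a single member, LINC01667 (edgeR). DESeq2 called 2 members, and 7 members (7.45%) had an unadjusted p under 0.05, against 28.1% of all genes. Both LAA libraries lay above their controls in both arms for 8 members and below for 1, against 11.5% and 12.5% of all genes. The sign of the LAA effect was the same in both arms for 53 of 94 members (56.4%), against 68.5% of all genes. The median standard error for LAA against vehicle was 0.39 over the members and 0.15 over all genes tested. Among the 17 members averaging at least 10 CPM it was 0.15 as well, and their median absolute log2 fold change was 0.11 against 0.21 over all genes, with 2 of the 17 (11.8%) against 18.9% of all genes at an unadjusted p under 0.05.

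LINC01667 was at 43.6 and 55.1 CPM with vehicle and 84.9 and 72.0 with LAA, and at 27.8 and 23.7 with ATRA and 31.2 and 33.6 with LAA+ATRA. It was thus higher with LAA in both arms without overlap, and lower with ATRA in both arms. The LAA effect averaged over both arms was 0.53 ± 0.09 on the log2 scale (edgeR adjusted p = 0.0081). It was 0.70 ± 0.13 without ATRA (edgeR adjusted p = 0.0509) and 0.37 ± 0.14 with it (edgeR adjusted p = 0.175). The average was not called without vehicle replicate 1 (0.45, edgeR adjusted p = 0.0591). Its nearest protein-coding gene, TPTE, lies 707544 bases away, and its estimated counts were not whole in any library.

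Other LAA differences did not pass the test. With LAA against vehicle LINC03011 was at 3.30 and 3.20 CPM against 1.68 and 1.94 (log2 0.87 ± 0.30, edgeR adjusted p = 0.153). LINC03014 had 0.36 ± 0.12 (edgeR adjusted p = 0.134), but on log2(FPKM + 1) its difference was -0.04. With LAA+ATRA against ATRA LINC02593 was at 5.17 and 5.93 CPM against 3.24 and 3.53 (log2 0.75 ± 0.23, edgeR adjusted p = 0.114), and LINC02076 at 1.97 and 3.07 against 1.30 and 0.945 (1.21 ± 0.45, edgeR adjusted p = 0.176).

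The interaction asks whether ATRA and LAA given together act differently from what their separate log2 effects add up to. No member was called (0 of 94 by edgeR, 0 by DESeq2), as against 0.00667% of all genes tested. There were 4 members (4.26%) at an unadjusted p under 0.05, against 4.98% of all genes. The smallest unadjusted p-values belonged to LINC03014 (-0.43 ± 0.16), LINC01409 (2.45 ± 0.97) and LINC02762 (-1.67 ± 0.69), with edgeR adjusted p of 0.910, 0.972 and 0.986. LINC01409 was at 1.17 and 1.00 CPM with vehicle, 0.671 and 0.873 with LAA, 0.270 and 0.166 with ATRA, and 0.415 and 1.26 with LAA+ATRA, where the 2 libraries with both compounds themselves lay far apart. The median standard error of the interaction was 0.54 over the members and 0.22 over all genes tested.

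The nearest protein-coding gene was among those tested for 73 members, 69 genes in all. Of these 73, 16 had a nearest gene called higher and 19 lower with ATRA, and the member and its neighbour had the same sign in 36. Across the 73 the log2 fold changes had r = 0.206 and rho = 0.226, a description over genes measured in the same libraries. Of 13 rises with a tested neighbour, 8 neighbours were higher and 1 lower. Of 8 falls, 1 neighbour was higher and 2 lower, and of 52 members not called, 7 neighbours were higher and 16 lower. These count members, so a gene nearest to several members is repeated. Among the lower ones, SAMD11 is nearest to LINC01128, LINC02593 and LINC00115, and TPST1 to LINC00174 and LINC03011. Over all genes tested 21.9% were higher and 21.0% lower, and no test of these small counts was made. AIFM3, a member of the apoptosis-inducing factor family, lies 429 bases from LINC01637 on the same strand and was higher by 1.91 ± 0.21 on the log2 scale (edgeR adjusted p = 1.65e-05). CTC1, a subunit of the CST telomere complex, lies 778 bases from LINC00324 and was higher by 0.71 ± 0.16 (edgeR adjusted p = 0.00321). GHRL, the ghrelin precursor gene, overlaps LINC00852 and went from a mean of 0.153 CPM with vehicle to 1.57 with ATRA (3.43 ± 0.70, edgeR adjusted p = 0.00182). Strand was not kept, and the estimated counts of LINC00852 were whole in all 8 libraries. GHRL lies on the opposite strand, and another protein-coding gene overlaps LINC00852 on the same strand. Sharing of reads between LINC00852 and these genes was not tested.

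FAM20C, a secretory pathway kinase, lies 37504 bases from LINC03014 and was higher by 0.91 ± 0.13 (edgeR adjusted p = 0.000151). S100P, a calcium-binding protein, lies 2550 bases from LINC02481 and was higher by 0.79 ± 0.20 (edgeR adjusted p = 0.00634). SPRY1, an inhibitor of receptor tyrosine kinase signalling, lies 246507 bases from LINC01091 and was higher by 1.29 ± 0.38 (edgeR adjusted p = 0.0162). The opposite direction was seen at LINC02577, which fell while PIK3CG, the catalytic subunit of phosphoinositide 3-kinase gamma 26798 bases away, went from a mean of 72.8 to 430 CPM (2.69 ± 0.10, edgeR adjusted p = 2.41e-09). It was also seen at LINC00847, which rose while ZFP62, a zinc finger gene 11885 bases away, fell by 0.66 on the log2 scale (edgeR adjusted p = 0.0257). CLEC2A, a C-type lectin gene 4198 bases from LINC02470, fell with it (-0.61 ± 0.18, edgeR adjusted p = 0.0150).

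**Figure D5:**
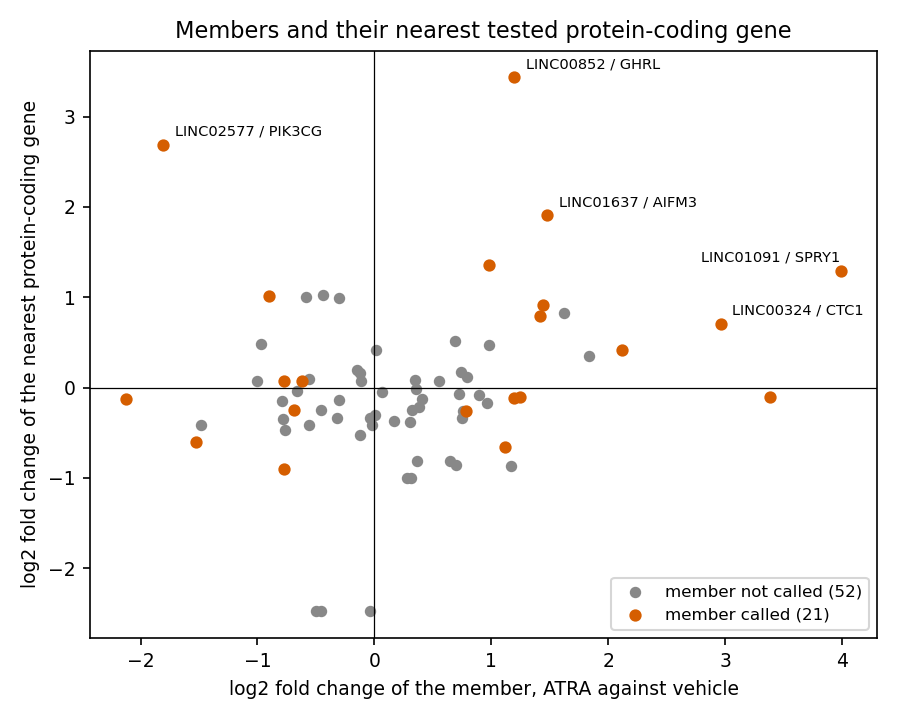
log2 fold change of ATRA against vehicle for 73 members (x axis) and for the nearest protein-coding gene of each (y axis); orange points are members called in that comparison and the labels name 5 pairs. Neighbours of LINC01637, LINC00324, LINC00852 and LINC01091 were higher along with the member, while PIK3CG rose beside LINC02577, which fell.

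Of the 47 LINC-numbered genes that meet the level rule but whose row carries no deposited symbol, 5 were higher and 4 lower with ATRA against vehicle (edgeR), which is 10.6% and 8.51% against 21.9% and 21.0% of all genes tested. LINC01226 is 1 of the 4, and the genes given here were chosen after their values were seen. LINC00963, at a mean of 57.6 CPM, was at 54.7 and 54.9 CPM with vehicle and 73.1 and 62.8 with ATRA (log2 0.43 ± 0.10, edgeR adjusted p = 0.00371). LINC00891 went from 1.53 and 1.64 to 4.86 and 4.14 CPM (1.63 ± 0.35, edgeR adjusted p = 0.00252). LINC02384 had no count with vehicle and was at 1.08 and 2.23 CPM with ATRA. LINC01127 was at 1.53 and 1.13 CPM with vehicle and at 0.108 and 0 with ATRA (edgeR adjusted p = 0.00405). LINC02384 and LINC00920, another of the 5 rises, met the level rule only through libraries with ATRA. LINC01127 met it only through libraries without ATRA. Each thus entered through the side on which it is high, which favours such a call.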

How the data were processed

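RNA was measured in 8 libraries of U-937 cells, 2 per group. The deposited values are estimated counts per Ensembl gene, not whole in 16.5% of cases, and FPKM, which the authors made from the same genes with a gene length that the sources do not state. The submitters' processing notes name the builds hg38 and GRCh38 and the tools DESeq2 1.36.0 and Salmon 1.8.0. Annotation release and strand setting: not given in the sources used here.

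Estimated counts were rounded. Genes were filtered with filterByExpr in edgeR 4.0.16 (R 4.3.3), which kept 14995 genes and all 94 members, and were scaled by TMM. The quasi-likelihood model had 1 mean per group and used all 8 libraries. The two-sided p-values were adjusted by the Benjamini-Hochberg method over all genes tested, with a threshold of 0.05. The LAA average is the mean of its effects without and with ATRA. Alternatives used DESeq2 1.42.0, RLE size factors, no filter, the replicate number as a block, the compared libraries alone, limma 3.58.1 on log2(FPKM + 1) or log2(FPKM + 0.1), and leaving out each library. Fits that left out a library kept the same genes, and a lone library was assumed to vary like the others. Such a fit holds less information on every gene, and its counts of members were not compared with those of all genes. The symbols of the gene name table were added as an alternative after the data were seen. Scripts were tested on simulated data.

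Positions are from GENCODE 29, matched by identifier without version, and promoters from RefSeq. Named genes were LINC01226, the 10 largest rises and falls called without overlap for ATRA against vehicle, the 5 and 3 largest for LAA+ATRA against vehicle and against LAA, those called or with the 3 smallest p in the LAA comparisons and the interaction, the 10 highest by FPKM, the 6 at the rule's edge, listed genes with a described role, and nearest genes. The members and lists were chosen with earlier results of these data known.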

Additional observations from a re-analysis of the deposited data

How the results depend on the processing

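The number of genes meeting the rule was 62 with at least 2 CPM, 147 with at least 0.5 FPKM and 142 with symbols from the gene name table, against 94. It was 135 with at least 0.5 CPM and 94 with TMM-scaled CPM, 92 of them shared. On log2(FPKM + 1), log2(FPKM + 0.1) and log2(FPKM + 1) with no low-value filter, the members higher with ATRA against vehicle numbered 9, 10 and 6, and those higher with LAA+ATRA against vehicle 12, 12 and 10. With no low-value filter in FPKM, 8 were lower with ATRA against vehicle, 13 were called with LAA+ATRA against LAA and 0 for the LAA average. For LAA against vehicle 1 member was called by DESeq2, 1 with no low-count filter and 2 with only the compared libraries, and for the LAA average 2 by DESeq2 and 2 with no low-count filter. The causes were not tested. The FPKM fits with a low-value filter set aside genes of low FPKM, so they can hold fewer than the 94 members. The shares of all genes called under the alternatives of this section are not given here. A lower count of members is therefore not read as a trait of the members.

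Leaving out 1 library gave 7 to 15 higher and 9 to 14 lower for ATRA against vehicle, 8 to 21 higher and 9 to 15 lower for LAA+ATRA against vehicle, 17 to 27 called for LAA+ATRA against LAA, 0 to 1 for LAA against vehicle and 0 to 2 for the LAA average. Calls for LAA+ATRA against ATRA and for the interaction were 0 under every alternative run. With the replicate number as a block, 13 were higher and 11 lower with ATRA against vehicle, 21 higher and 14 lower with LAA+ATRA against vehicle, 26 called with LAA+ATRA against LAA, 0 with LAA against vehicle, LAA+ATRA against ATRA or interaction, and 1 for the LAA average. Deviations of same-numbered libraries from their group means correlated between -0.094 and 0.093 across groups. No strong shared effect of the replicate number was seen, which cannot exclude that the numbers pair libraries.

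Signs changed in FPKM for LINC03014 in LAA against vehicle (-0.038 on log2(FPKM + 1) with and without the filter, and -0.042 on log2(FPKM + 0.1)) and for LINC01226 in LAA+ATRA against ATRA (-0.13 on log2(FPKM + 1) with and without the filter, and -0.33 on log2(FPKM + 0.1)). With a median of 2.24 CPM per member, the median standard error for ATRA against vehicle was 0.377 on the log2 scale, against 0.153 over all genes tested. It is not a detection limit, since changes well above it could miss the threshold.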
